A study of Homo sapiens with 6 samples.

Results

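The cytosolic ribosomal protein genes were taken as the protein-coding genes of the count table whose symbol begins with RPL or RPS followed by a digit, or with RPLP or RPSA, leaving out the RPS6K kinases. This rule found 91 of the 30230 genes in the table, 55 named for the large subunit (RPL) and 36 for the small subunit (RPS). Of the 91 genes, 77 encode the ribosomal proteins themselves, here called core members, with 46 in the large and 31 in the small subunit. The other 14 comprised 8 paralogs (RPL3L, RPL10L, RPL22L1, RPL26L1, RPL36AL, RPL39L, RPS27L and RPS4Y1), 3 readthrough transcripts that run on into a neighbouring gene (RPL17-C18orf32, RPL36A-HNRNPH2 and RPS10-NUDT3), 2 proteins that are not ribosomal proteins (RPL7L1 and RPS19BP1) and RPS27AP5, whose name marks a pseudogene. The rule does not find ribosomal proteins that carry other names, such as RACK1 and FAU.

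The libraries were made from polyadenylated RNA of A549 cells, which derive from a human adenocarcinoma of the lung, with 3 libraries of a negative control (NC) and 3 after silencing of FSCN1 (siFSCN1). FSCN1 encodes fascin, which bundles actin filaments. The NC cells received a scramble siRNA per the methods (their treatment label says control plasmid), and the siFSCN1 cells the siRNA siFSCN1-1926. All libraries came from this single line and a single targeting siRNA, and p-values therefore measure the spread between these cultures.

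The ribosome reads mRNA on its small subunit and forms peptide bonds on its large subunit, and each subunit is built from ribosomal RNA and a set of mostly single-copy proteins. Cells make the proteins in near equal numbers. Most of their mRNAs begin with a C followed by a run of C and T, the terminal oligopyrimidine (TOP) sequence, through which mTOR signalling and LARP1 control their translation and stability. Ribosomal protein mRNAs are among the most abundant of a growing tumour cell.

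Silencing of FSCN1 was visible in every library. FSCN1 had 6107, 5788 and 7265 counts in NC and 628, 390 and 450 counts in siFSCN1. The groups did not overlap, and the log2 fold change was -3.89 (SE 0.0937, edgeR adjusted p = 8.1e-16). The libraries held between 27967301 and 36560919 counts. The epithelial keratins KRT8, KRT18 and KRT7 were abundant in all 6 libraries and fell (log2 fold changes of -0.88, -0.99 and -1.19), CDH1 rose (1.35) and EPCAM, which was low at 2.80 to 4.51 FPKM, rose too (0.29). Defining markers of leukocytes, endothelium and fibroblasts (PTPRC, CD3E, PECAM1, VWF and DCN) had between 0 and 8 counts per library, while COL1A1 had 73 to 133 and CD14, which rose (0.40), 163 to 302. In bulk RNA, fewer cells of a type and less RNA per cell cannot be told apart.

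Ribosomal protein mRNAs were lower in siFSCN1 across both subunits, and hardly any went the other way. Of the 88 members that passed the filter on low counts, 83 fell and 1 (RPL26L1) rose at an edgeR adjusted p under 0.05. Among all 17076 genes tested, 33.2% fell and 35.1% rose. The median log2 fold change of the members was -0.41, or 75.3% of the NC level, against 0.03 over all tested genes. RPS26, RPS2 and the paralog RPL22L1 fell by more than 2-fold, and the next largest fall was far smaller.

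The sequences around the transcription start are shown first for 6 members, because they carry the feature most ribosomal protein genes share and because these members lie at both ends of the response. Each line gives 30 bases before and 20 bases from the annotated start in RefSeq (GRCh38.p14), 5′ to 3′ on the gene's strand, and the capitals mark the unbroken pyrimidine run that begins with C at the start. RPS26 (chr12:56041888-56041937, plus strand), RPL22L1 (chr3:170870176-170870225, minus strand), RPS9 (chr19:54200828-54200877, plus strand) and RPL18 (chr19:48619159-48619208, minus strand) fell most among the members with a promoter at hand, and RPLP1 (chr15:69452788-69452837, plus strand) and RPS12 (chr6:132814539-132814588, plus strand) are among those that moved least.
RPS26: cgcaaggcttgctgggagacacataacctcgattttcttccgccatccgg
RPL22L1: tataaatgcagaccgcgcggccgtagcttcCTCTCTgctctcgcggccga
RPS9: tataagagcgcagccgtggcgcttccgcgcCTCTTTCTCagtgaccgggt
RPL18: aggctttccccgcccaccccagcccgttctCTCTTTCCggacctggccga
RPLP1: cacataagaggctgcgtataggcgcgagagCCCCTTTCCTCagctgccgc
RPS12: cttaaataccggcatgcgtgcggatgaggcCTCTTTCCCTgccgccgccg

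A TOP sequence was searched on the gene's strand as C followed by at least 4 bases that are C or T. It began at the annotated start of 49 of the 71 members with a RefSeq promoter (69.0%). Among the 27234 other genes with a RefSeq promoter, not limited to those of the count table, it did so in 4.98%. Within 10 bases of the annotated start it was found in 87.3% of these members and 38.3% of the other genes. The 6 starts shown differ little in this respect, apart from that of RPS26, which has no such run at its annotated base. RPS26 does have a TOP sequence within 10 bases of that start. RPLP1 and RPS12 have runs of 11 and 10 pyrimidines, and RPS9 and RPL18 runs of 9 and 8. The 49 tested members with the sequence at the start had a median log2 fold change of -0.40, and the 21 without it one of -0.43, and this difference was not tested. No promoter was at hand for 20 members, RPS2 among them.

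A second set of sequences is shown because an siRNA can also bind transcripts that pair with its seed, positions 2 to 8 of the guide strand. The first line is the stretch of FSCN1 that siFSCN1-1926 pairs with, in the 3′ UTR at chr7:5605786-5605804 on the plus strand. The other 2 lines are the places in RPS2 (coding sequence, chr16:1962210-1962228, minus strand) and RPS26 (3′ UTR, chr12:56044179-56044197, plus strand) that match the seed, with the run shared with the FSCN1 site in capitals. Transcript sequences and regions are those of GENCODE v44 on GRCh38.
FSCN1: GAGCCTTATTTCTCTGGAA
RPS2: tgacccccgacCTCTGGAA
RPS26: gacaggctaTTCTCTGGAg

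The shared runs were 8 bases in RPS2 and 9 bases in RPS26. The 7 letters opposite the seed, CTCTGGA on the transcript strand, were present in the canonical transcript of 14 of the 88 tested members (15.9%) and of 37.6% of other tested protein-coding genes, whose transcripts are longer (median 3313 against 844 bases). Members with the letters had a median log2 fold change of -0.45 and members without them one of -0.41, against -0.05 and 0.0006 for other coding genes with and without them. For letters in the 3′ UTR, as in RPS26, the medians were -0.48 and -0.41 among members and -0.12 and 0.0008 among other coding genes. Among the holders the log2 fold change ran from -2.39 (RPS26) to -0.10 (RPL12), and none of the 6 members above RPL12 holds the letters. RPL12 has a run of 9 bases, in the coding sequence, and a log2 fold change of -0.10, and RPL22L1 has no match. RPL14 has a run of 11 bases and a log2 fold change of -0.54. Its letters begin at base 4109 of a canonical transcript of 7136 bases, in the 3′ UTR. Whether the RPL14 mRNA of these cells reaches that far was not tested. Whether the siRNA acted on RPS2 or RPS26 through these letters was not tested.

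In the large subunit, 49 of 53 tested members fell and 1 rose, with a median log2 fold change of -0.41 and an interquartile range of 0.23. In the small subunit, 34 of 35 tested members fell and none rose at this threshold, with a median of -0.41 and an interquartile range of 0.19. The medians of the subunits differed by -0.0038 (large minus small), and the sign of this difference turned when NC replicate 2, NC replicate 3 or siFSCN1 replicate 2 was left out (0.0052, 0.0042 and 0.0069). CPM, the TMM-scaled counts relative to library size, did not overlap between groups and were lower in siFSCN1 for 83 of the 88 members, against 34.4% of all tested genes. In the single siFSCN1 libraries the median of the members lay at -0.34, -0.40 and -0.48 on the log2 scale relative to the NC mean, while the 3 NC libraries lay between -0.02 and 0.02. All 3 silenced libraries were therefore low, and siFSCN1 replicate 3 was lowest in both subunits.

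**Figure D1:**
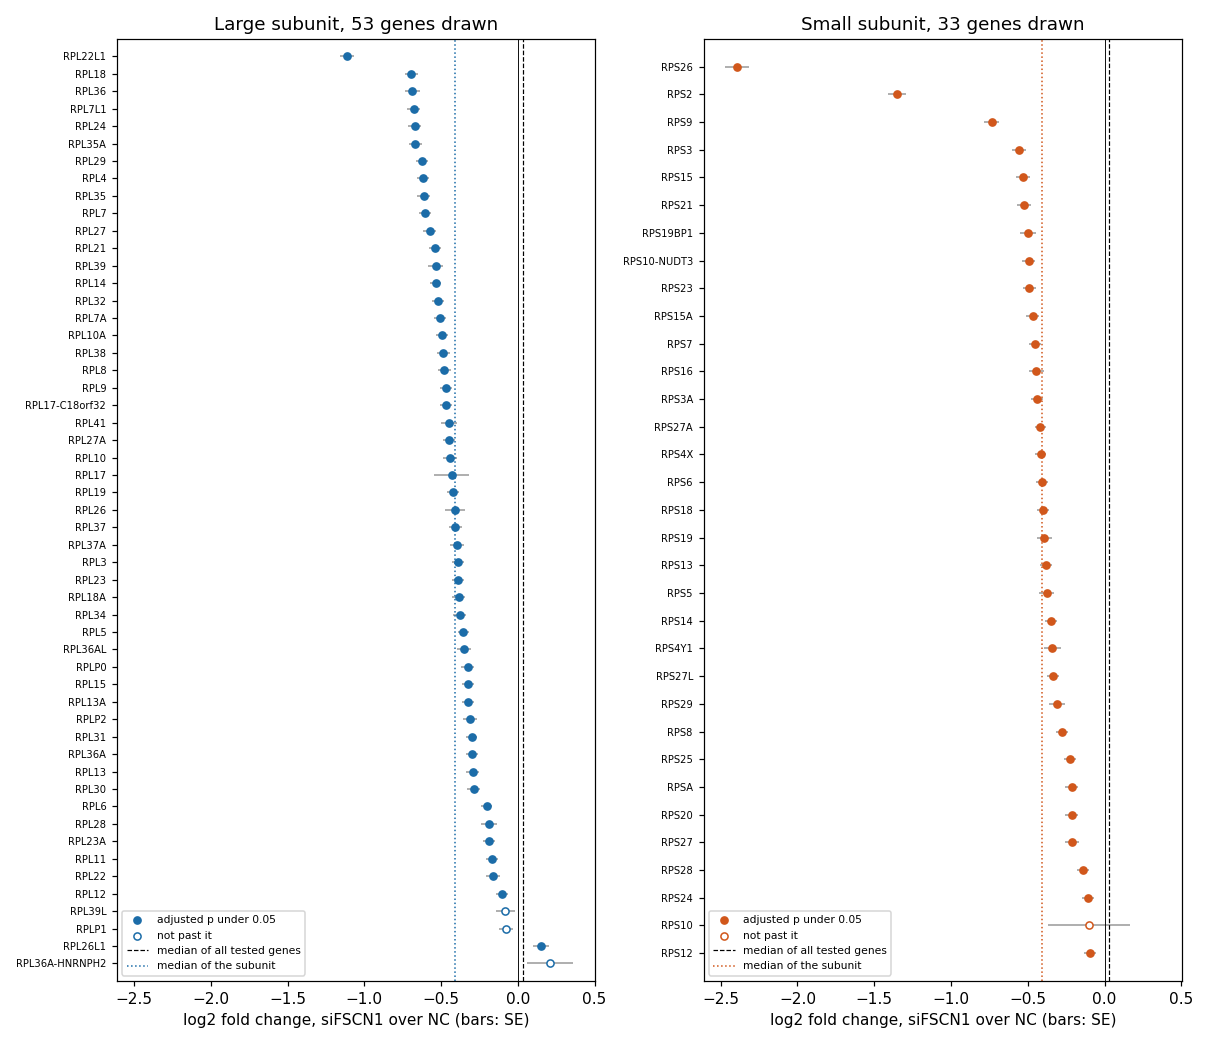
Log2 fold change (siFSCN1 over NC) of 86 of the 88 tested ribosomal protein genes, large subunit left and small subunit right, with bars for the standard error, filled points for genes past an adjusted p of 0.05, a dashed line at the median of all tested genes (0.03) and a dotted line at each subunit's median (-0.41 in both). All points but those of RPL26L1 and RPL36A-HNRNPH2 lie left of the dashed line, with RPS26, RPS2 and RPL22L1 farthest from it and RPL26L1 as the single filled point on its right.

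These values depend on how libraries were scaled. With TMM the all-gene median was 0.03, and with library totals alone it was 0.22. A scaling moves all genes nearly alike, so the distance of the large subunit median from the all-gene median stayed at -0.44 under each scaling by construction. With other settings this distance was -0.31 (limma on log2(FPKM + 1)), -0.55 (no filter) and -0.40 (stricter filter). With library totals, 69 members were called lower, where 22.4% of all tested genes were, and 5 were called higher, namely RPL12, RPS12, RPLP1, RPL26L1 and RPL36A-HNRNPH2. The falls of the least changed members are accordingly given below with the scalings that turn them.

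Abundant genes as a group also moved down. Protein-coding genes that are no members and had a mean FPKM of at least 100 numbered 233. Of these, 188 fell and 29 rose (median log2 fold change -0.43), beside 33.2% and 35.1% of all tested genes. The 69 members above the same level had a median of -0.41, and 68 of them fell. The median of the members was thus near that of other abundant genes, while their interquartile range was 0.21 against 0.53. Across the 77 core members the log2 fold change was not ordered by the NC level (Pearson r = -0.11, Spearman rho = -0.06, a description across genes that share libraries).

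**Figure D2:**
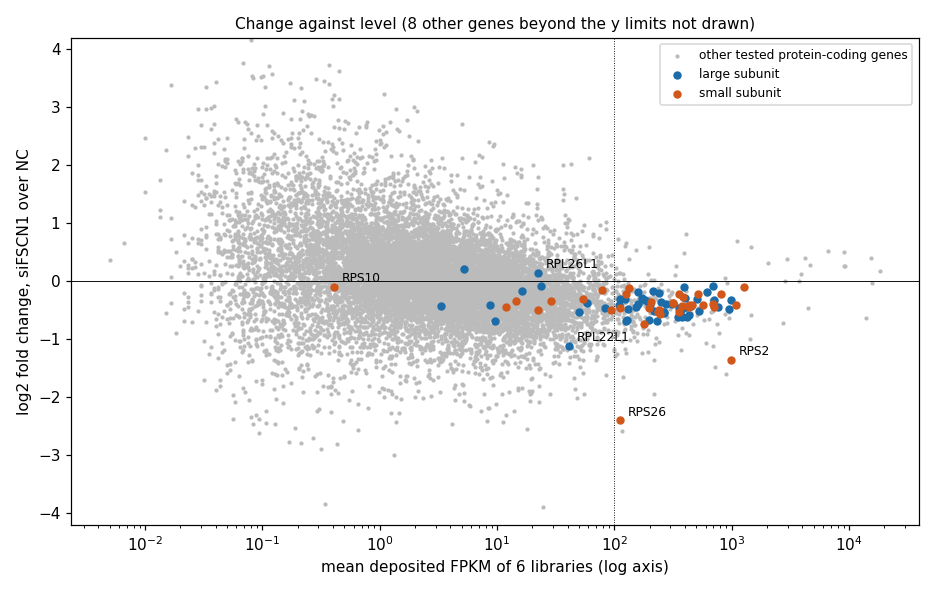
Log2 fold change (siFSCN1 over NC) against mean deposited FPKM on a log axis for tested protein-coding genes, with large subunit members in blue, small subunit members in orange, other genes in grey and a dotted line at 100 FPKM. Most members form a narrow band around -0.41 at the abundant end, and RPS26, RPS2 and RPL22L1 lie below it.

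RPS26 encodes a small subunit protein at the channel where mRNA leaves the ribosome, and its loss of function is a cause of Diamond-Blackfan anaemia. The gene (ENSG00000197728.11, chr12:56041351-56044697, plus strand) had 496, 471 and 465 CPM in NC and 108, 84.3 and 80.0 CPM in siFSCN1. The silenced libraries lay far below the controls, at 19.03% of the NC mean. The log2 fold change was -2.39 (SE 0.0759, edgeR adjusted p = 1.4e-14), the largest fall of any member. Reads of its named pseudogenes came to 0.315% of the reads of gene and pseudogenes together.

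RPS2 encodes a small subunit protein at the entry of the mRNA channel and had the highest FPKM of the core members in NC (1369 FPKM). Its CPM (ENSG00000140988.16, chr16:1962058-1964841, minus strand) were 4174, 4064 and 4102 in NC and 1824, 1532 and 1472 in siFSCN1. The groups were wide apart, with siFSCN1 at 39.1% of NC and a log2 fold change of -1.35 (SE 0.0594, edgeR adjusted p = 7.6e-13). The processed pseudogene RPS2P5, which shares sequence with RPS2, fell by 1.34 on the log2 scale, and pseudogene entries held 4.79% of the combined reads.

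RPL22L1 encodes a paralog of the large subunit protein RPL22. Its CPM (ENSG00000163584.18, chr3:170864875-170870208, minus strand) were 138, 136 and 146 in NC and 67.4, 64.2 and 63.2 in siFSCN1. The silenced libraries were again all low and close together, and the log2 fold change was -1.11 (SE 0.0456, edgeR adjusted p = 3.2e-13). These 3 genes made up the members lower by at least 2-fold, a change found in 4.85% of all tested genes. No member was higher by 2-fold, against 11.7% of all tested genes.

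**Figure D3:**
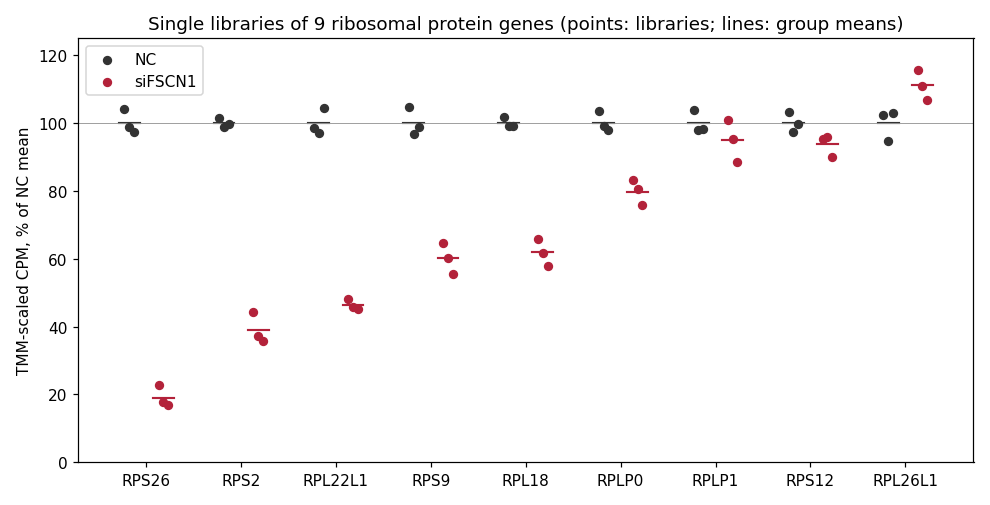
TMM-scaled CPM of 9 ribosomal protein genes in each library, as a percentage of the NC mean of that gene, with black points for NC, red points for siFSCN1 and lines at the group means. RPS26 lay near 19.03%, RPS2 near 39.1% and RPL22L1 near 46.3% of NC, RPLP1 overlapped between the groups, and RPL26L1 lay above its controls.

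After these 3, the falls formed a continuous range. RPS9, a small subunit body protein near the mRNA entry, fell by 0.74 on the log2 scale (SE 0.0482, edgeR adjusted p = 1.9e-10), with 1211, 1119 and 1144 CPM in NC and 746, 696 and 643 in siFSCN1. RPL18 fell by 0.69 (SE 0.0433, edgeR adjusted p = 1.0e-10), with 1355, 1321 and 1320 CPM in NC and 877, 823 and 772 in siFSCN1. In both genes every silenced library was under every control. RPL36 (-0.69), RPL24 (-0.67), RPL35A (-0.67) and RPL4 (-0.62), all of the large subunit, and RPS3 (-0.56), a head protein of the small subunit with a second role in DNA repair, were among those that came next. RPS6, the small subunit protein that S6 kinases phosphorylate, fell by 0.41, from 2163, 2104 and 2079 CPM to 1623, 1615 and 1549 CPM, and so lay at the middle of the range.

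At the other end, some abundant members were nearly level. RPLP1 had 2859, 2691 and 2704 CPM in NC and 2774, 2620 and 2431 in siFSCN1, so the groups overlapped, and the log2 fold change was -0.08 (SE 0.0467, edgeR adjusted p = 0.152). It passed the threshold when siFSCN1 replicate 1 was left out (-0.14, edgeR adjusted p = 0.00604), and with library totals it passed in the other direction (0.11, edgeR adjusted p = 0.0199). RPS12, a protein of the small subunit head, had 1028, 970 and 994 CPM in NC and 950, 956 and 896 in siFSCN1, with a log2 fold change of -0.09 (SE 0.0388, edgeR adjusted p = 0.0384). That call was lost under a stricter filter and without NC replicate 1, NC replicate 3 or siFSCN1 replicate 3 (edgeR adjusted p = 0.135, 0.134, 0.0645 and 0.0838), and its sign turned with library totals, upper quartile scaling and both FPKM settings. RPL12 at the stalk base (-0.10) and RPS24 (-0.11) turned under the same settings and lost their calls under the stricter filter and without NC replicate 3. RPS28 (-0.14) and RPL22 (-0.16) turned with library totals and both FPKM settings and lost their calls with upper quartile scaling. RPL11 (-0.17) turned with library totals and lost its call with upper quartile scaling and both FPKM settings. RPS27 (-0.21) kept its sign but lost its call with upper quartile scaling, library totals and both FPKM settings.

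By position in the ribosome, the group medians ranged from -0.26 for the proteins that bind 5S ribosomal RNA to -0.43 for those around the exit tunnel, a narrow span beside that of single members. The P stalk recruits the GTPases of translation, and its proteins RPLP0 (-0.33) and RPLP2 (-0.31) fell while RPLP1 (-0.08) was not called, although RPLP2 missed the threshold on both FPKM settings (limma adjusted p = 0.0603 and 0.0624). RPL5 (-0.36) and RPL11 (-0.17) bind that RNA and, outside the ribosome, the p53 ligase MDM2, and both fell, RPL11 with the exceptions given above. All 8 members around the exit tunnel for the new peptide fell, from RPL4 (-0.62) to RPL23A (-0.19), with a median of -0.43, although RPL23A lost its call with upper quartile scaling (-0.07), library totals (-0.0010) and both FPKM settings (-0.02). In the small subunit, 13 of 14 head proteins fell (median -0.38), and so did all 17 body and platform proteins (median -0.42), which include RPS26 and RPS2. Beside these counts by position, 94.3% of all tested members and 33.2% of all tested genes fell.

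Of the 18 members listed as Diamond-Blackfan anaemia genes, 17 fell (94.4%), near the 94.3% of all tested members and beside 33.2% of all tested genes. Their median was -0.37, with RPS26 as the lowest. The exception was RPS10, a head protein, with a log2 fold change of -0.10 (SE 0.268, edgeR adjusted p = 0.755). This entry held 22, 38 and 42 counts in NC and 40, 31 and 37 in siFSCN1, and pseudogene entries held 71.8% of the combined reads. The reads of this locus stood instead on the readthrough entry RPS10-NUDT3, which had 697, 668 and 698 CPM in NC, 514, 493 and 457 CPM in siFSCN1 and a log2 fold change of -0.49. RPL17 showed the same division, with 3.65 FPKM on its own entry and 393 FPKM on RPL17-C18orf32 in NC (log2 fold changes of -0.43 and -0.47). The third readthrough entry, RPL36A-HNRNPH2, had 3.13 to 4.82 CPM in NC and 3.98 to 5.01 CPM in siFSCN1, and its log2 fold change of 0.21 was not called (edgeR adjusted p = 0.232) except with library totals.

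Members that serve as reference genes in PCR assays fell too. All 6 listed (RPLP0, RPL13A, RPL19, RPL32, RPS18 and RPS13) were lower, between -0.52 for RPL32 and -0.32 for RPL13A. So were 94.3% of all tested members and 33.2% of all tested genes. RPL13A had 4291, 4151 and 4197 CPM in NC and 3480, 3373 and 3247 in siFSCN1, with no overlap.

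Summed over their genes, large subunit members held 5.89% ± 0.0598 of all NC counts and 5.09% ± 0.181 of all siFSCN1 counts (mean ± SD of 3 libraries each). The small subunit share was 4.11% ± 0.0631 among NC counts and 3.40% ± 0.139 among siFSCN1 counts, given the same way. The ratio of large to small subunit counts was 1.43, 1.44 and 1.43 in the NC libraries and 1.49, 1.49 and 1.51 in the siFSCN1 libraries. The ratio was thus higher in all 3 silenced libraries, by a factor of 1.04. RPS2 alone went from 0.385% to 0.171% of all counts, and without RPS2 and RPS26 the ratio was 1.59, 1.61 and 1.60 in NC and 1.58, 1.57 and 1.59 in siFSCN1, lower by a factor of 0.988 and narrowly without overlap. The ratio was thus higher in siFSCN1 with these 2 genes and lower without them. They were left out after their values were seen. Both are the largest falls of the small subunit, so leaving them out lowers the factor by construction. With sums of FPKM in place of counts the factor was 1.03 with all members and 0.962 without these 2 genes, again without overlap.

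**Figure D4:**
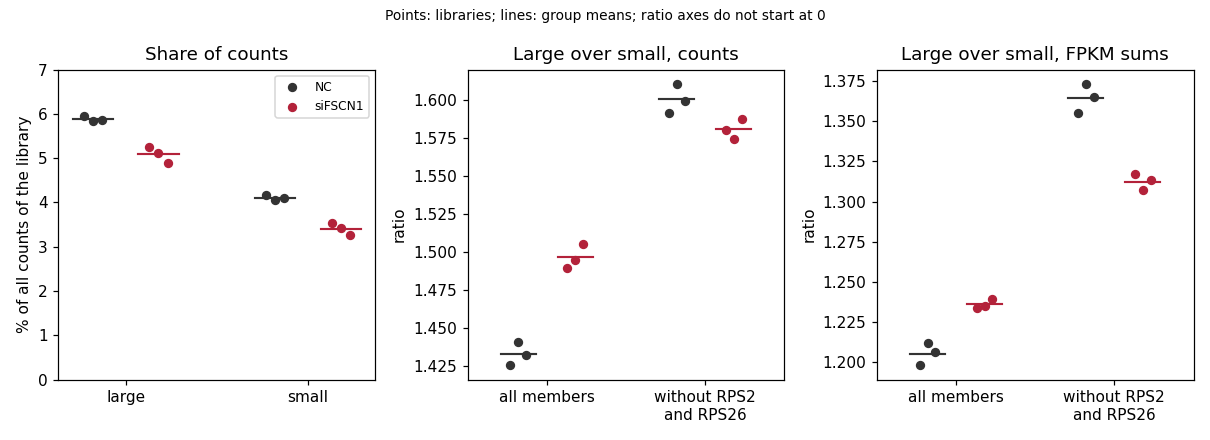
Share of all counts on large and small subunit members (left) and the ratio of large to small subunit sums in counts (middle) and in deposited FPKM (right), each with all members and without RPS2 and RPS26, by library, with lines at group means. The count ratio goes from 1.433 to 1.496 with all members and from 1.600 to 1.580 without the 2 genes.

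On the per-length FPKM scale the core members spanned a wide range of values in NC. These values also depend on the length that each entry was divided by. RPS29, for example, had 696 CPM and 56.2 FPKM in NC, while RPS21 had 526 CPM and 404 FPKM. The median was 260 FPKM in the large subunit and 343 FPKM in the small subunit, and 67 of the 77 core members had at least 100 FPKM. RPS2 (1369 FPKM) and RPS12 (1240 FPKM) were highest. In siFSCN1 RPS2 was at 601 FPKM and RPS12 at 1303 FPKM, so RPS12 stood above RPS2 on this scale. In CPM, which are not divided by length, RPS2 stayed above RPS12 in siFSCN1 (means of 1609 and 934). The low end was held by RPS10 (0.397 FPKM), RPL17 (3.65 FPKM), RPL26 (9.49 FPKM) and RPL22 (16.3 FPKM), among others. Of these, RPS10 and RPL17 are the members whose reads stood mainly on a readthrough entry.

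Paralogs can replace their parent protein in some ribosomes, and the ratio of paralog to parent within a library does not depend on the scaling. It was compared in the 6 of 8 listed pairs in which both genes passed the filter. The list holds the paralogs other than RPS4Y1 and, beside RPL7, the like-named RPL7L1. RPL22L1 over RPL22 was 3.45, 3.26 and 3.31 (FPKM ratio) in NC and 1.74, 1.73 and 1.71 in siFSCN1. The pair thus shifted away from the paralog in all 3 libraries, by -0.95 on the log2 scale. RPL26L1 over RPL26 went the other way, from 2.27, 2.03 and 2.03 to 3.52, 3.12 and 2.74, and RPL39L over RPL39 went from a mean of 0.0763 ± 0.0067 to 0.105 ± 0.0076 (SD, n = 3). The RPL26 entry was low for a core member (9.49 FPKM in NC) and overlaps ENSG00000263809 on the same strand, so it may not hold all reads of the parent. The ratios of RPS27L to RPS27 (-0.12) and of RPL7L1 to RPL7 (-0.08, log2 scale) were a little lower in siFSCN1 without overlap, and RPL36AL over RPL36A overlapped. Each of the 5 pairs without overlap had an exact two-sided permutation p = 0.1, the smallest that 3 against 3 libraries allow (adjusted p = 0.12 over the 6 pairs). None could therefore pass 0.05.

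Among the members of these pairs, RPL26L1 was the only member that rose, by 0.15 on the log2 scale (SE 0.0535, edgeR adjusted p = 0.0195), with 27.8 to 30.1 CPM in NC and 31.3 to 33.9 CPM in siFSCN1. The silenced libraries lay just above the controls. RPL26L1 shares its locus with RPL26L1-AS1 on the other strand, and the strand setting of the counting was not stated. This call was lost with DESeq2 (adjusted p = 0.176), with no filter (edgeR adjusted p = 0.0567), and without NC replicate 1 or 2 or siFSCN1 replicate 1 or 2 (edgeR adjusted p = 0.0511 to 0.120). Its parent RPL26 fell by 0.41. RPL39L (-0.08) was not called (edgeR adjusted p = 0.278), though it passed without NC replicate 3 (-0.17, edgeR adjusted p = 0.0281), while RPL39 fell by 0.54. RPS27L and RPL36AL fell by 0.33 and 0.35.

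**Figure D5:**
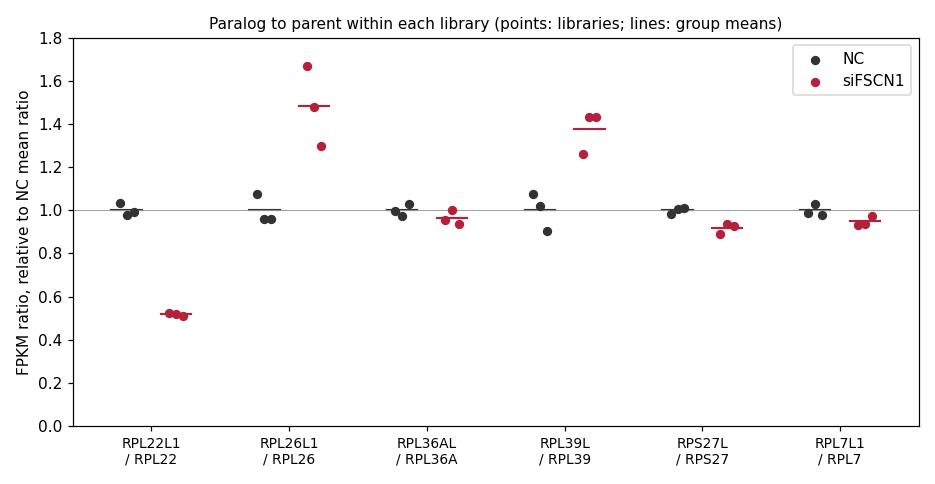
Ratio of paralog to parent FPKM in each library, relative to the NC mean ratio of the pair, for the 6 pairs tested, with black points for NC, red points for siFSCN1 and lines at group means. RPL22L1 over RPL22 (3.34 to 1.73 in absolute ratio) lies far below its controls, RPL26L1 over RPL26 (2.11 to 3.13) and RPL39L over RPL39 lie above, and the other pairs stay close to 1.

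The remaining members outside the core were the nucleolar protein RPL7L1, which fell by 0.68 on the log2 scale, RPS19BP1, a binding partner of RPS19, which fell by 0.50, and 3 genes that did not pass the filter. RPL10L had 0 to 3 counts per library, RPL3L, which is made mainly in muscle, 0 to 7 counts and RPS27AP5 1 to 9 counts. RPS4Y1 fell, as RPS4X did (-0.42).

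Ribosomal proteins that the rule does not find moved in the same direction, and RACK1 (-0.74) and FAU (-0.65) fell. RACK1, a signalling scaffold on the small subunit head, had 2327, 2308 and 2282 CPM in NC and 1461, 1372 and 1308 in siFSCN1. FAU encodes a ribosomal protein fused to a ubiquitin-like protein.

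Of 15 other genes listed as having TOP mRNAs, mainly translation factors, 11 fell and 2 rose, with a median of -0.23. They were taken from a list, and the search above was not read out for them one by one. BTF3, part of the complex that binds nascent peptides, fell most (-0.66), and the elongation factors EEF2 (-0.23), EEF1A1 (-0.22), EEF1G (-0.34) and EEF1B2 (-0.33) fell. EIF3F (0.32) and the poly(A) binding protein PABPC1 (0.12) rose, and TPT1 was at 0.02 without a call. Of 14 genes of mTOR signalling and TOP control, 6 fell (42.9%), 3 rose and 5 were not called, beside 33.2% that fell and 35.1% that rose among all tested genes. RPTOR, the mTORC1 scaffold, fell by 1.09 (44.8, 43.6 and 41.0 CPM to 19.1, 20.9 and 20.9 CPM) and LARP1, which binds TOP mRNAs, by 0.88 (190, 199 and 190 CPM to 103, 100 and 111 CPM). MTOR (0.48), TSC2 (0.42) and RPS6KB1 (0.15) rose, and MYC, which drives transcription of ribosomal protein genes, fell by 0.18.

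Of 8 chaperones that escort single ribosomal proteins, 7 fell and none rose, beside 33.2% and 35.1% of all tested genes. GRWD1, which escorts RPL3, fell most, by 1.29 (155, 159 and 154 CPM to 67.6, 60.5 and 62.6 CPM), while RPL3 itself fell by 0.39. TSR2, the chaperone of RPS26, had a log2 fold change of -0.27 beside -2.39 for RPS26, and PDCD2, a chaperone of RPS2, one of -0.52 beside -1.35 for RPS2. BCCIP (-0.66), PDCD2L (-0.71), HEATR3 (-0.57) and AAMP (-0.31) fell as well, and LTV1 (-0.10, edgeR adjusted p = 0.0967), which acts in small subunit export, was not called.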

How the data were processed

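The authors trimmed reads with the FASTX Toolkit, aligned them to GRCh38 with HISAT2 and counted uniquely mapped reads, per the study's methods, while the submitters' processing notes name TopHat2. The counter, the strand option it used and the release of the annotation are not given in the sources used here, and the library kit was directional. The authors deposited raw counts per gene for 30230 genes and FPKM (fragments scaled to transcript length and depth) for 29899 genes.

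Counts were filtered with filterByExpr, scaled by TMM and compared over all 17076 remaining genes by the quasi-likelihood test in edgeR 4.0.16 (under R 4.3.3) without covariates, with Benjamini-Hochberg adjustment and a threshold of 0.05. The authors used DESeq2, which was run as an alternative (DESeq2 1.42.0), as were limma 3.58.1 on log2(FPKM + 1) and log2(FPKM + 0.1), RLE and upper quartile scaling, library totals, no filter, a stricter filter (mean count of 10 or more, with at least 3 libraries at 1 CPM), a replicate block and leaving out each library. Standard errors came from the fold change and its F statistic. The fit was tested on simulated data. FPKM served for comparisons of level between genes and for paralog ratios, with exact permutation tests (scipy 1.17.1).

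The members and gene lists were chosen with earlier results of these data known, and no list was tested as a set. Named were FSCN1, the 4 lowest and 4 highest called changes of each subunit, all P stalk, 5S-binding, reference, paralog, readthrough and non-ribosomal members, and the extremes of the other lists; further genes named, such as RPS6, RPL24, RPL35A, RPL14, RPS4X, TPT1, EEF1A1, LARP1, TSR2 and PDCD2, were chosen after their values were seen. Values of a few single genes are not reported here, though the counts and medians include them. All 91 members were found in GENCODE v44, where 1600 pseudogenes carry the names of 78 members. Pseudogene entries held over 5% of the combined reads for RPS10, RPL9 and RPS28. On the same strand 15 members overlap another gene and on the opposite strand 39 do, so reads of these pairs may be divided between entries. Replicates differed by more than counting noise (chi-square per degree of freedom 3.11 to 8.23), so no library was counted as a duplicate.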

Additional observations from a re-analysis of the deposited data

How the results depend on the processing

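The medians of the large and small subunit were -0.29 and -0.29 with upper quartile scaling, -0.22 and -0.22 with library totals, -0.23 and -0.24 with limma on log2(FPKM + 1), and -0.24 and -0.24 on log2(FPKM + 0.1). The number of members that rose was 5 with library totals, 0 with no filter, 0 with DESeq2 and 0 to 1 when single libraries were left out. The large minus small difference of medians was 0.0098 with log2(FPKM + 1) and ran from -0.020 to 0.0069 when single libraries were left out. The small subunit share of counts in siFSCN1 over NC was 0.876 without RPS2 and RPS26, an alternative chosen after seeing the data, and the large over small ratio changed by a factor of 1.03 with FPKM sums and 0.988 without these 2 genes. The fall turned to a positive log2 value with library totals for RPL11 (0.018), RPL22 (0.027), RPL12 (0.083), RPS28 (0.044), RPS24 (0.078), RPS12 (0.092) and RPLP1 (0.11), and with upper quartile scaling for RPL12 (0.014), RPS24 (0.0095) and RPS12 (0.023). On log2(FPKM + 1) and log2(FPKM + 0.1) it turned for RPL22 (0.0076 and 0.0081), RPL12 (0.062 and 0.062), RPS28 (0.023 and 0.024), RPS24 (0.057 and 0.057) and RPS12 (0.071 and 0.071). The cause was not tested.

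The fall counts of the subunits (49 and 34) stayed within 1.5 times under every alternative run, at 40 and 25 with limma and 39 and 30 without the members holding the seed letters, which removes 14 genes. Same-numbered libraries did not deviate together (correlations of -0.03, 0.04 and -0.08). The replicate numbers thus gave no sign of a pairing, though 3 libraries per group can miss a weak one. With the number as a block 49 and 34 members fell, with medians of -0.41 and -0.41. The depth leaves members under about 50 counts, such as RPS10, with wide errors.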

Other observations

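Pseudogenes of ribosomal protein genes, most of them processed copies of the spliced mRNA, were also read in these libraries. Of the 81 that passed the filter, 45 fell (55.6%) and 7 rose, beside 33.2% and 35.1% of all tested genes. The median log2 fold change of the 81 was -0.52. RPS2P5 had 194 to 210 CPM in NC and 72.2 to 85.7 CPM in siFSCN1, a log2 fold change of -1.34 beside -1.35 for RPS2. RPL9P9 fell by 0.51 beside a fall of 0.47 in RPL9, and RPS28P7 by 0.18 beside 0.14 in RPS28, whose sign turned with library totals. Reads of a parent and its copy share sequence, and whether the pseudogenes are transcribed was not tested. In GENCODE v44, 29 members hold a small nucleolar RNA gene within their bounds, which polyadenylated RNA does not measure.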
